A study of Gallus gallus with 24 samples.

Results

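The hepatic expression of DNA replication genes was followed through hatch in broiler chickens. A list of 45 genes was grouped by role, from the proteins that mark replication origins to those that pack newly copied DNA, and 41 of them carried at least 1 annotated probe set, of 13009 named genes on the array. MCM4, GINS2, CDC6 and POLD1 were not analysed here. Each gene is shown by its probe set with the highest mean over all arrays, so that neither the change with age nor its direction entered the choice. The 41 genes had 73 probe sets, 21 genes had more than 1, and 40 genes had a mean above 4.43, the 25th percentile of all probe sets. PRIM2 lay below that level.

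Livers of Ross x Ross (meat-type) chickens, all labelled male, were sampled at 6 ages, with 4 livers per age and one Affymetrix Chicken Genome Array per liver. The embryos were of days 16, 18 and 20 of incubation (E16, E18 and E20) and developed in ovo on yolk. The hatchlings were 1 day old (D1), not yet fed, or 3 and 9 days old (D3 and D9) and fed a starter ration freely. The labels and the methods differ on how long D1 chicks were held after hatch (24 h against 4 h). Per the methods, the chicks kept beyond D1 were also vaccinated against Marek's disease and moved to a heated brooder. Feeding, vaccination, housing and age cannot be told apart. Values are log2 intensities from the authors' normalization, and a ratio is the log2 level at the later age minus that at the earlier age. A gene is called higher or lower where limma's adjusted p was 0.05 or less and the absolute log2 ratio 0.75 or more.

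DNA is copied once in each cell cycle, in S phase. The origin recognition complex (ORC) marks the start sites and, with CDT1, loads the ring-shaped MCM helicase. CDC45 and the GINS proteins then turn that ring into a moving helicase, DNA polymerases follow it, a sliding clamp (PCNA) holds them on the template, and enzymes of nucleotide metabolism supply the deoxynucleotides. Many of these genes are transcribed mainly in dividing cells, and in yeast and mammalian cells much of that control runs through the passage from G1 to S phase. The roles given here are those known from yeast, frog and mammalian cells. In a whole liver, fewer cells of a type and less RNA per cell cannot be told apart.

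Arrays of the same age correlated between 0.984 and 0.993. The W-linked gene HINTW measured 12.17 on the array labelled E18 replicate 2 and at most 6.05 on the other arrays, which goes against the male label of that liver. The atrial peptide gene NPPA measured 8.11 on D9 replicate 1 and at most 5.23 elsewhere. Without both arrays, 15 of the replication genes described here were called lower in E18 vs. E16 in place of 17, 20 in D9 vs. D3 in place of 23 and 5 in D9 vs. E16 in place of 6, and the counts in the other contrasts were the same. All 11 measured hepatocyte markers, ALB and TTR among them, had age means of 9.52 or more. The mean deviation of that marker list from its own average stayed between -0.09 and 0.14 on every array, but 10 of the 11 had age means of 13.33 or more, near the highest value of the arrays (15.24). The other one, HNF4A, a transcription factor, had a ratio of -0.66 in E20 vs. E18 (adjusted p = 0.0333 by limma).

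On average the 41 genes were low at E18 and E20, high at D1 and D3 and in between at E16 and D9, although 15 of them were not called between any neighbouring ages. Relative to each gene's own mean over 24 arrays, the 41 genes averaged 0.14 ± 0.14 in E16 livers, -0.53 ± 0.16 in E18 livers and -0.59 ± 0.15 in E20 livers on the log2 scale (SD, n = 4 livers). Hatchling livers averaged 0.49 ± 0.20 when D1, 0.64 ± 0.09 when D3 and -0.15 ± 0.10 when D9. The lowest of the D1 and D3 arrays was at 0.22, and the highest of the E18 and E20 arrays at -0.39. D3 held the highest age mean of 24 genes, D1 of 10, E16 of 5 and E18 of 2. E20 held the lowest age mean of 22 genes, E18 of 16, D9 of 2 and D1 of 1.

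**Figure D1:**
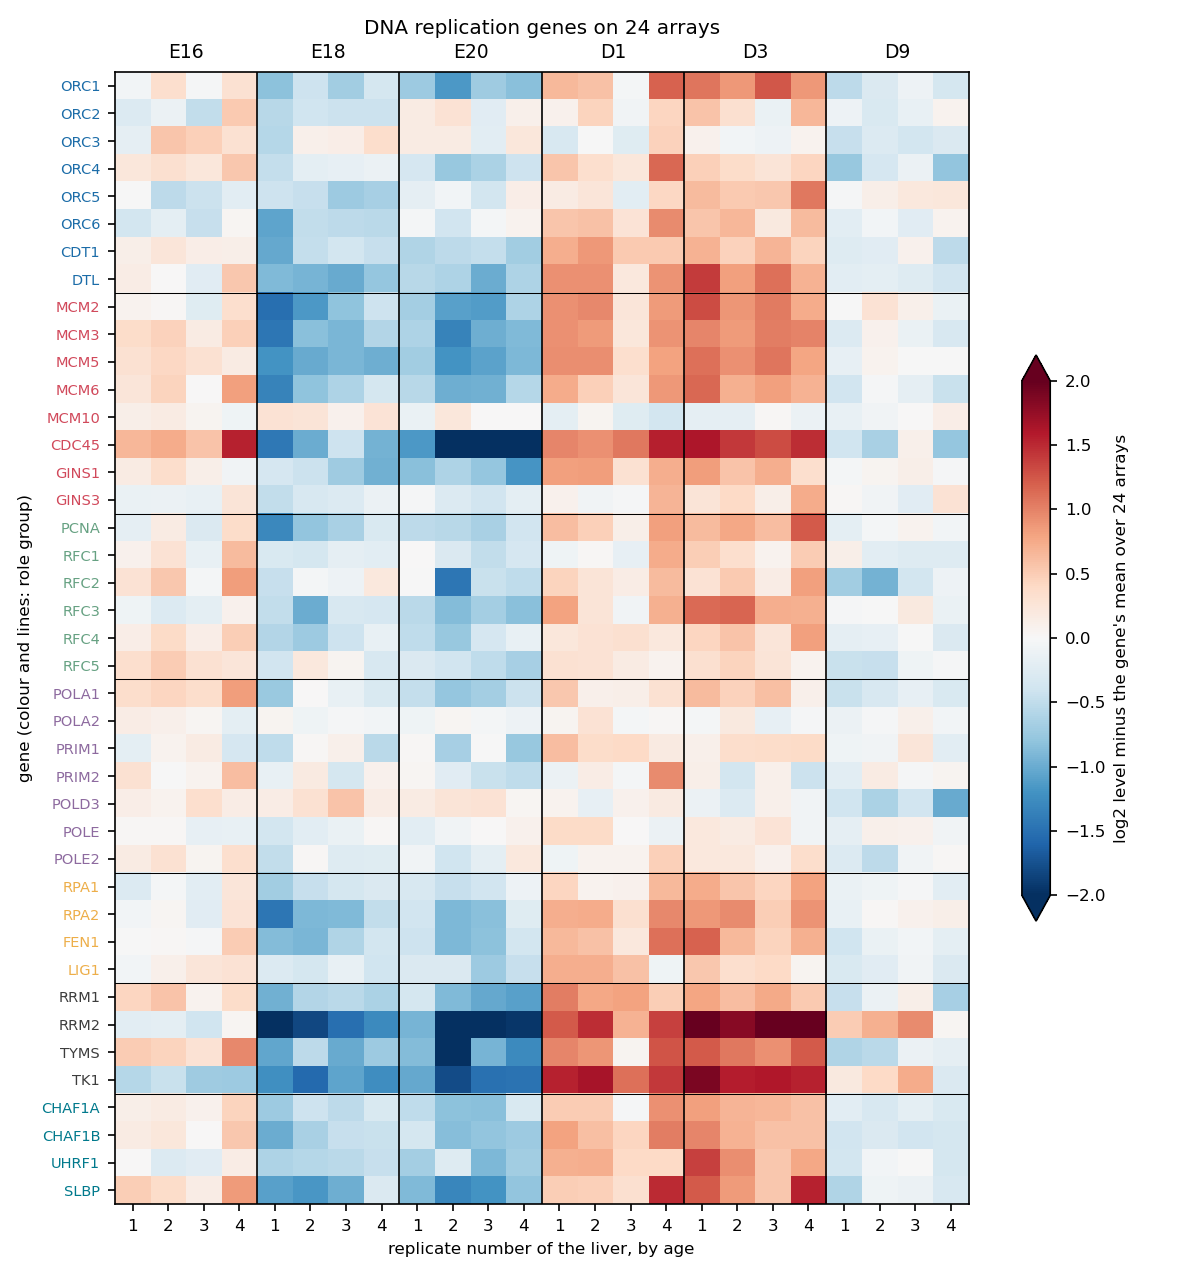
Heat map of the log2 level of 41 DNA replication genes (rows, grouped by role) on 24 arrays (columns, 4 livers per age from E16 to D9), as the difference from each gene's mean over all arrays. Colours are clipped at -2 and 2. The E18 and E20 columns are mostly blue and the D1 and D3 columns mostly red, while rows such as MCM10, POLA2 and POLE stay pale.

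In the E18 vs. E16 contrast 17 of the 41 genes were lower and 0 were higher, where 1.37% of all named genes were called lower and 0.215% higher. At an unadjusted p below 0.05, 30 genes were lower and 0 higher. Unadjusted counts, here and in the other contrasts, are not given for all named genes. The shares beside them are for calls at both limits and are no background for them. CDC45 had the lowest ratio (-1.82 ± 0.27, SE), followed by RRM2 (-1.51 ± 0.26) and TYMS (-1.38 ± 0.23). The median ratio of the 41 genes was -0.653, against -0.001 over all named genes. The 4 E18 arrays lay below the 4 E16 arrays for 30 genes, as they did for 936 of 13009 named genes. The count was 10 when only the E16 and E18 arrays were fitted and 11 with the mean of each gene's probe sets.

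The 9 measured of 17 listed markers of red blood cells (HBAD, RHAG and SLC4A1 among them) also had lower levels at E18. Their mean deviation was 0.06 to 0.52 on the E18 arrays and 0.89 to 1.04 on the E16 arrays, and 1 of the 9, RHAG, was called. At E20 the marker list had dropped to between -0.78 and -0.47, and it stayed between -0.86 and -0.26 at D1, when the replication genes were high. The part of red blood cell RNA in the E18 vs. E16 difference was not tested.

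The group was low at both E20 and E18. In the E20 vs. E18 contrast a single gene, CDC45, was lower and 0 were higher, while 1.83% of all named genes were lower and 2.4% higher. With an unadjusted p below 0.05, 3 genes were higher and 3 lower. The median ratio was -0.044 for the replication genes and -0.015 for all named genes. ORC6, a small subunit of the origin complex, had a ratio of 0.56 with an adjusted p of 0.0248 by limma, under the limit on the ratio, and its other probe set was called with a ratio of 0.84. The E20 arrays lay above the E18 arrays for 3 genes (ORC2, ORC5 and ORC6), as they did for 1073 of 13009 named genes. The CDC45 call was lost when only the E18 and E20 arrays were fitted.

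Across hatch most of the group rose. In the D1 vs. E20 contrast 25 of 41 genes were higher and 0 were lower, where 3.44% of all named genes were higher and 2.28% lower. Before adjustment, 33 genes were higher and 1 (MCM10) was lower at a p below 0.05. CDC45 (3.21 ± 0.27, SE), RRM2 (3.08 ± 0.26, 8.45-fold) and TK1 (2.88 ± 0.18, 7.34-fold) had the highest ratios, and the differences among them were not tested. The CDC45 ratio is not exact, because 3 of its 4 E20 livers read 4.31 to 4.48, near the 25th percentile of all probe sets (4.43). The median ratio was 1.091, against 0.01 over all named genes. D1 arrays lay above E20 arrays for 30 genes without overlap, as they did for 1274 of 13009 named genes. Every array left out in turn gave 24 to 26 called genes.

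No replication gene passed both limits between D3 and D1. In this contrast 0 genes were called in either direction by limma, with backgrounds of 2.63% higher and 1.88% lower among all named genes, and at an unadjusted p below 0.05, 6 genes were higher and 0 lower. The ratios ran between -0.38 and 0.84 with a median of 0.182. RRM2 had the highest (0.84 ± 0.26, SE, adjusted p = 0.0536 by limma). The D3 arrays lay above the D1 arrays for 2 genes, RRM2 and ORC5, as they did for 1097 of 13009 named genes. ORC5 (0.54 ± 0.14, adjusted p = 0.0221) passed on the p value but not on the ratio. A single gene, not always the same, was called under 5 of the alternatives and without E18 replicate 1, E20 replicate 1, E20 replicate 3 or D9 replicate 4. Without a limit on the ratio it was ORC5, and without 1 of these arrays it was RRM2.

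By D9 the levels had dropped again. In the D9 vs. D3 contrast 23 genes were lower and 0 higher, where 1.84% of all named genes were lower and 0.969% higher. Before adjustment, the counts at a p below 0.05 were 35 and 0. CDC45 (-1.88 ± 0.27, SE), RRM2 (-1.48 ± 0.26) and TYMS (-1.46 ± 0.23) again had the lowest ratios. The median was -0.803, against 0.006 over all named genes, and the D9 arrays lay below the D3 arrays for 33 genes, as they did for 1265 of 13009 named genes.

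**Figure D2:**
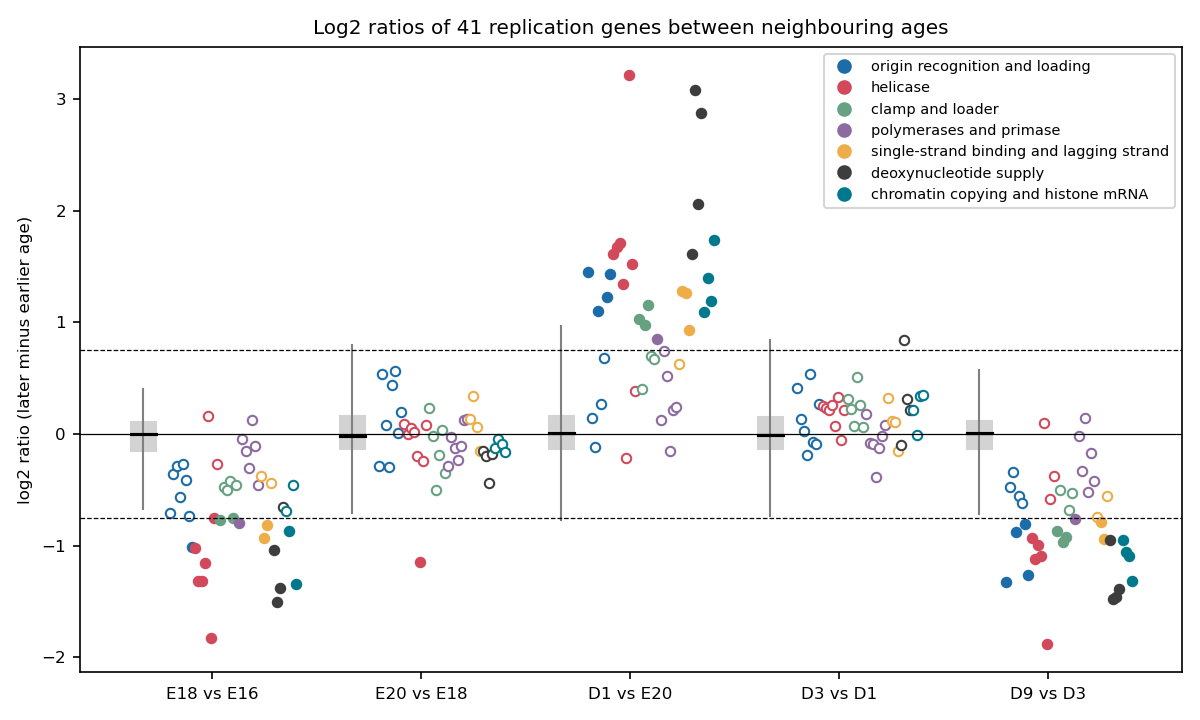
Log2 ratio of each of 41 replication genes (points, coloured by role) in the 5 contrasts of neighbouring ages, later minus earlier. Filled points were called, dashed lines mark the limit of 0.75, and grey boxes and lines left of each group give the quartiles and the central 95% of 13009 named genes. The points sit low in E18 vs. E16 and D9 vs. D3, near 0 in E20 vs. E18 and D3 vs. D1, and reach 3.21 in D1 vs. E20.

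The E18 vs. E16, D1 vs. E20 and D9 vs. D3 contrasts share no array, although all were fitted with 1 estimate of the spread. The sequence of lower, higher and lower calls in these 3 contrasts was met by 15 of the 41 genes (36.6%) and by 109 of 13009 named genes (0.838%). The 15 genes were DTL, MCM2, MCM3, MCM5, MCM6, CDC45, PCNA, POLA1, RPA2, FEN1, RRM1, RRM2, TYMS, CHAF1B and SLBP. The 3 ratios had these signs, called or not, in 37 of 41 genes, and the share over all named genes is not given. The count was 12 without E18 replicate 2 and D9 replicate 1, and 9 where each contrast was fitted on its own arrays. Across the 41 genes, the size of one step went with that of the next. Pearson's r was -0.85 between the E18 vs. E16 and D1 vs. E20 ratios (Spearman's rho -0.89), -0.87 between D1 vs. E20 and D9 vs. D3 (rho -0.89) and 0.83 between E18 vs. E16 and D9 vs. D3 (rho 0.83). These are descriptions across genes of the same livers, and genes are not independent replicates. The correlations were not set against those of other named genes.

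The 15 genes without any call between neighbouring ages were ORC2, ORC3, ORC5, ORC6, MCM10, GINS3, RFC1, RFC5, POLA2, PRIM1, PRIM2, POLD3, POLE, POLE2 and RPA1. Polymerase and primase subunits made up 6 of them and ORC subunits 4. The other ORC6 probe set was called in E20 vs. E18 and D9 vs. D3 (0.84 and -0.78). The gene with the narrowest spread of age means was POLA2, whose means lay between 7.13 and 7.25.

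Among genes of origin recognition and loading, 1 of 8 was lower in E18 vs. E16, 4 were higher in D1 vs. E20 and 4 were lower in D9 vs. D3. ORC1, the ATPase subunit that binds origins first, was 2.73-fold higher at D1 than at E20 and 2.5-fold lower at D9 than at D3. CDT1, which brings the MCM ring to the origin, was 2.34-fold higher at D1 and 1.74-fold lower at D9. The other CDT1 probe set, nearly as bright (means of 7.39 and 7.55), had larger ratios, 2.25 in D1 vs. E20 and -1.11 in D9 vs. D3, and was also called lower in E18 vs. E16 (-1.53, against -0.74 for the one shown). ORC4 followed the same steps, with ratios of 1.10 in D1 vs. E20 and -0.88 in D9 vs. D3, whereas ORC3, a core subunit, had its lowest mean at D9 (7.04 ± 0.09) and its highest at E16 (7.68 ± 0.33, SD, n = 4).

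DTL, the substrate receptor of the ubiquitin ligase that destroys CDT1 in S phase, had the widest range of age means in this role. Its log2 level was 6.12, 5.98, 5.74 and 6.51 at E16, 5.08, 5.05, 4.96 and 5.20 at E18 and 5.41, 5.35, 4.98 and 5.35 at E20. After hatch it was 6.89, 6.89, 6.18 and 6.87 at D1, 7.37, 6.79, 7.07 and 6.67 at D3 and 5.76, 5.78, 5.71 and 5.60 at D9. D1 and E20 values did not overlap, nor did D3 and D9 values, and D1 replicate 3 stood lower than the other D1 livers. The ratio was -1.01 ± 0.17 in E18 vs. E16, 1.43 ± 0.17 in D1 vs. E20 and -1.26 ± 0.17 in D9 vs. D3 (SE), with limma's adjusted p = 0.0023, 3.56e-06 and 5.65e-05. Only 1 of the 2 DTL probe sets was called, and with their mean the E18 vs. E16 ratio was -0.67 and no longer passed.

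Of 8 helicase genes measured, 6 were lower in E18 vs. E16, 6 were higher in D1 vs. E20 and 5 were lower in D9 vs. D3. The MCM ring subunits MCM2, MCM3, MCM5 and MCM6 had ratios between -1.32 and -1.02 in E18 vs. E16, between 1.34 and 1.71 in D1 vs. E20 and between -1.12 and -0.93 in D9 vs. D3, and all 4 were called in each. MCM5 had the smallest SE of the 4 (0.12), with levels of 9.12 ± 0.28 at D1 and 7.41 ± 0.21 at E20 (SD, n = 4). GINS1 rose at D1 by 1.52 ± 0.15 (SE), although only 1 of its 4 probe sets was called, and GINS3, a partner in the same complex, had 0.39 ± 0.16. A single probe set of 2 carried the MCM2 calls and 1 of 4 the MCM6 calls. In D1 vs. E20 the other MCM2 probe set had a ratio of 0.24 and the lowest of MCM6 -0.07. Both were dim (means of 4.27 and 3.41). The next brightest MCM6 probe set (mean 6.81) had a ratio of 0.1.

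MCM10, which helps to start the loaded helicase, was not called in any contrast of neighbouring ages, and its 2 probe sets differed in direction. On the brighter one its log2 level was 6.46, 6.51, 6.39 and 6.25 at E16, 6.63, 6.59, 6.42 and 6.62 at E18 and 6.21, 6.57, 6.36 and 6.34 at E20. In hatchlings it was 6.14, 6.39, 6.10 and 5.97 at D1, 6.16, 6.16, 6.36 and 6.22 at D3 and 6.20, 6.27, 6.35 and 6.47 at D9. Neighbouring ages overlapped throughout. Its ratio in D1 vs. E20 was -0.22 ± 0.09 (SE, adjusted p = 0.175 by limma), and it was the only gene of the 41 with its lowest mean at D1. The dimmer probe set (mean 5.13) had ratios of -0.41 in E18 vs. E16, 0.56 in D1 vs. E20 and -0.58 in D9 vs. D3.

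CDC45, a permanent part of the moving helicase, was called in 4 of the 5 contrasts of neighbouring ages. Its log2 level was 7.44, 7.53, 7.36 and 8.33 at E16, 5.35, 5.79, 6.37 and 5.85 at E18 and 5.63, 4.31, 4.37 and 4.48 at E20. Hatchlings measured 7.75, 7.70, 7.84 and 8.34 at D1, 8.41, 8.20, 8.08 and 8.26 at D3 and 6.39, 6.14, 6.89 and 6.01 at D9. The 3 lowest E20 livers were at or near the dim end of the array and E20 replicate 1 stood above them, at a level within the E18 range. D1 and D3 lay above every E18, E20 and D9 liver. Limma gave an adjusted p of 0.000863 in E18 vs. E16, 0.00938 in E20 vs. E18, 2.54e-08 in D1 vs. E20 and 0.000125 in D9 vs. D3.

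**Figure D3:**
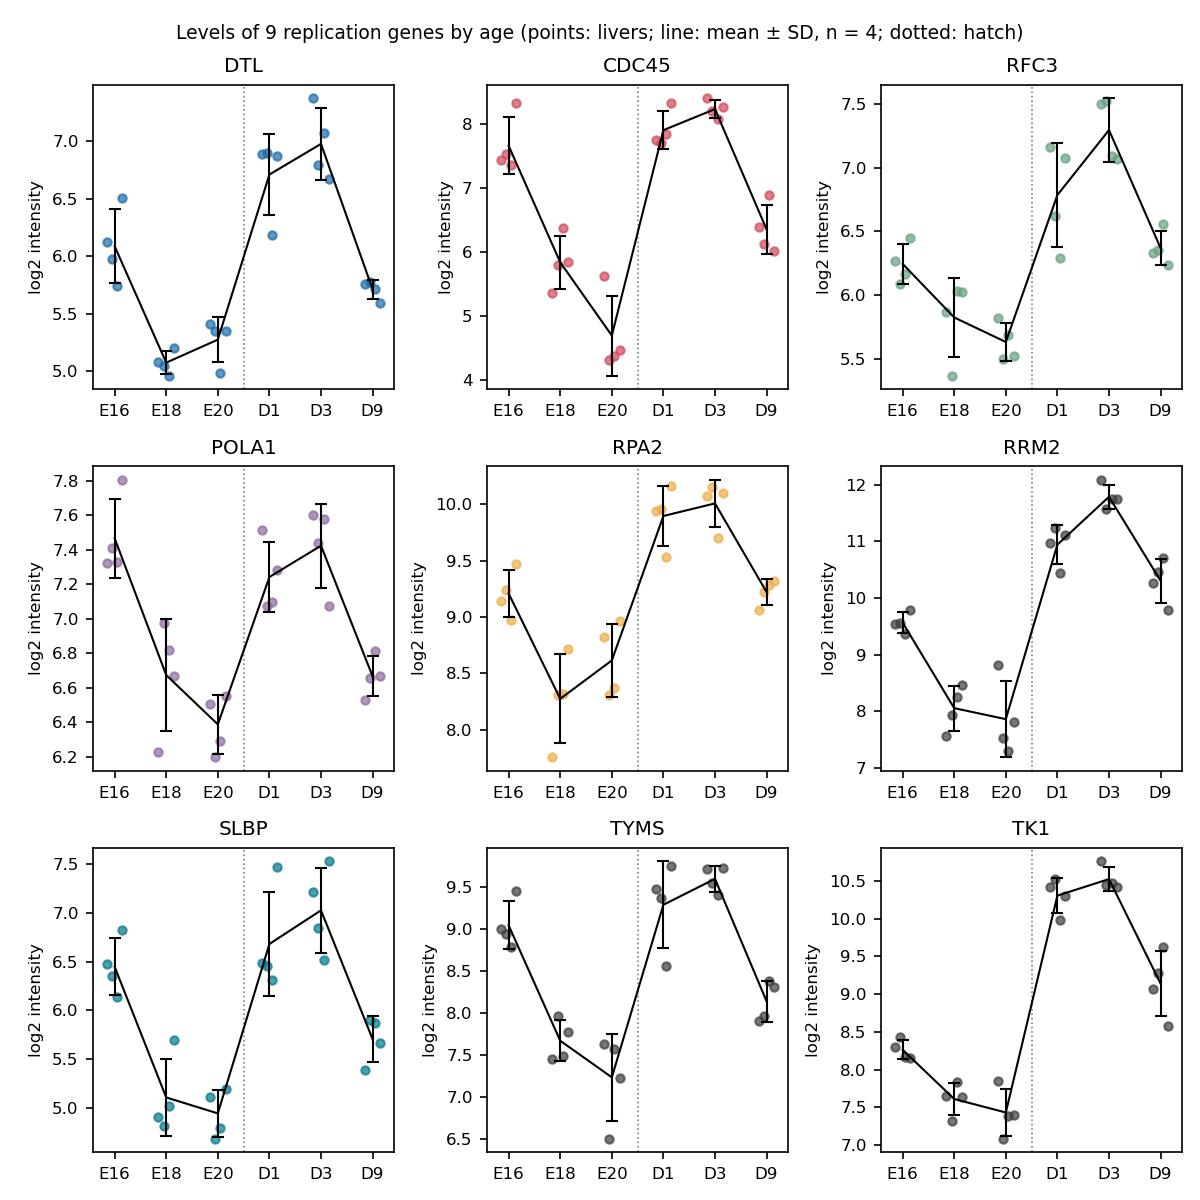
Log2 level by age of DTL, CDC45, RFC3, POLA1, RPA2, RRM2, TK1, TYMS and SLBP (points are livers, lines and bars are the mean ± SD of 4 livers, the dotted line marks hatch, and each panel has its own vertical scale). All 9 have their lowest mean at E18 or E20 and a higher mean at D3 than at D9. TK1 is the only one whose D9 livers all lie above its E16 livers.

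The sliding clamp PCNA was 1.71-fold lower at E18 than at E16, 2.04-fold higher at D1 than at E20 and 1.83-fold lower at D9 than at D3. Of the 5 loader subunits (RFC1 to RFC5), RFC2 and RFC3 were called higher in D1 vs. E20 and lower in D9 vs. D3, RFC4 was called lower only in E18 vs. E16, and RFC1 and RFC5 were not called. The 2 probe sets of RFC2 differed in D1 vs. E20, with ratios of 0.98 and -0.74, and the other probe set was called lower in hatchlings vs. embryos (-1.18).

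RFC3, a small loader subunit, spanned the widest range of this role. Its log2 level was 6.27, 6.09, 6.17 and 6.45 at E16, 5.87, 5.37, 6.03 and 6.03 at E18 and 5.82, 5.50, 5.68 and 5.53 at E20. It was 7.16, 6.62, 6.29 and 7.07 at D1, 7.50, 7.52, 7.09 and 7.07 at D3 and 6.33, 6.35, 6.56 and 6.23 at D9. D1 livers spread more widely than D3 livers (SD 0.41 and 0.25), and all D1 livers lay above the E20 livers. Ratios were 1.15 ± 0.17 in D1 vs. E20 and -0.93 ± 0.17 in D9 vs. D3 (SE), with adjusted p = 7.38e-05 and 0.00169 by limma.

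Polymerase and primase genes had the median ratios nearest to 0 of the 7 roles in E18 vs. E16, D1 vs. E20 and D9 vs. D3. One of 7, POLA1, was lower in E18 vs. E16, higher in D1 vs. E20 and lower in D9 vs. D3, and the other 6 were not called. PRIM1 in D1 vs. E20 and POLD3 in D9 vs. D3 passed on limma's adjusted p but not on the ratio. The median D1 vs. E20 ratio of this role was 0.246, against 2.467 for deoxynucleotide supply. PRIM1, the catalytic primase subunit, had a D1 vs. E20 ratio of 0.746 ± 0.18 (SE, adjusted p = 0.00791). POLE, the catalytic subunit of the leading-strand polymerase, and its partner POLE2 had 0.21 and 0.25. POLD3, an accessory subunit of the lagging-strand polymerase, ran another way on the probe set shown. Its mean there was 7.99 ± 0.20 at E18, 7.61 ± 0.16 at D3 and 7.09 ± 0.29 at D9 (SD, n = 4).

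POLA1, the catalytic subunit of the polymerase that extends the primers, measured 7.32, 7.41, 7.33 and 7.81 at E16, 6.23, 6.98, 6.82 and 6.67 at E18 and 6.50, 6.20, 6.29 and 6.55 at E20. It measured 7.51, 7.07, 7.10 and 7.29 at D1, 7.60, 7.44, 7.58 and 7.08 at D3 and 6.53, 6.65, 6.82 and 6.67 at D9. The D1 and D3 livers overlapped the E16 livers and lay above those of E18, E20 and D9. Its ratios were small (-0.79 ± 0.15, 0.86 ± 0.15 and -0.76 ± 0.15, SE, in E18 vs. E16, D1 vs. E20 and D9 vs. D3). One of 2 probe sets was called, with the mean of both 0.58 in D1 vs. E20, and the other was dim (mean 4.42). The E18 vs. E16 call was lost without E16 replicate 4 or E18 replicate 1, and the D9 vs. D3 call without D3 replicate 1, D3 replicate 3 or D9 replicate 1.

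Of the single-strand binding and lagging strand genes, RPA2, FEN1 and LIG1 were higher in D1 vs. E20, RPA2 and FEN1 were lower in E18 vs. E16 and in D9 vs. D3, and RPA1 had ratios of 0.63 in D1 vs. E20 and -0.75 in D9 vs. D3, both past the adjusted p alone. RPA1 and RPA2 are subunits of the complex that coats unwound DNA, FEN1 trims the flaps between lagging strand fragments and LIG1 seals them. FEN1 was dim, with means of 4.66 at E18 and 4.72 at E20 and single arrays down to 4.43, so its ratios against these ages are not exact.

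RPA2 measured 9.15, 9.24, 8.98 and 9.47 at E16, 7.76, 8.31, 8.31 and 8.72 at E18 and 8.82, 8.31, 8.37 and 8.96 at E20. In hatchlings it measured 9.94, 9.95, 9.53 and 10.16 at D1, 10.08, 10.16, 9.70 and 10.10 at D3 and 9.06, 9.23, 9.28 and 9.32 at D9. All D1 and D3 livers exceeded all others, and the D9 livers fell within the E16 range. The ratio was 1.28 ± 0.18 in D1 vs. E20 (SE, adjusted p = 3.46e-05 by limma). In D9 vs. D3 it was -0.79 ± 0.18, and this call was lost after cyclic loess normalization and without D3 replicate 2 or D9 replicate 1.

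Genes of deoxynucleotide supply had the median ratios farthest from 0 of the 7 roles in E18 vs. E16, D1 vs. E20 and D9 vs. D3 (-1.208, 2.467 and -1.423). All 4 were higher in D1 vs. E20 and lower in D9 vs. D3, and 3 of 4 were lower in E18 vs. E16. RRM1 and RRM2 encode the subunits of ribonucleotide reductase, which makes deoxynucleotides from ribonucleotides, TYMS makes thymidylate and TK1 recovers it from thymidine. RRM1 changed less than its partner RRM2, with D1 vs. E20 ratios of 1.61 ± 0.17 and 3.08 ± 0.26 (SE).

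RRM2 measured 9.54, 9.56, 9.36 and 9.79 at E16, 7.56, 7.93, 8.25 and 8.47 at E18 and 8.81, 7.53, 7.29 and 7.80 at E20. After hatch it measured 10.97, 11.22, 10.45 and 11.11 at D1, 12.08, 11.58, 11.74 and 11.74 at D3 and 10.26, 10.46, 10.70 and 9.79 at D9. Every D1 and D3 liver was above every embryo, and D9 livers lay between the D3 and the E20 livers, the lowest of them level with the highest E16 liver. Its range of age means, 3.92, was the widest of the 41 genes.

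TK1 measured 8.30, 8.43, 8.17 and 8.15 at E16, 7.64, 7.32, 7.83 and 7.64 at E18 and 7.85, 7.08, 7.38 and 7.40 at E20. It measured 10.42, 10.52, 9.98 and 10.30 at D1, 10.76, 10.45, 10.47 and 10.42 at D3 and 9.07, 9.28, 9.62 and 8.58 at D9. All 12 hatchlings exceeded all 12 embryos, which held for no other gene of the group and for 184 of 13009 named genes. Its E18 vs. E16 ratio (-0.65 ± 0.18, SE, adjusted p = 0.0602 by limma) did not pass, whereas the ratios of 2.88 in D1 vs. E20 and -1.38 in D9 vs. D3 did (adjusted p = 9.42e-10 and 3.71e-05).

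TYMS measured 9.00, 8.94, 8.78 and 9.45 at E16, 7.45, 7.96, 7.49 and 7.77 at E18 and 7.63, 6.50, 7.57 and 7.22 at E20. It measured 9.48, 9.37, 8.55 and 9.76 at D1, 9.71, 9.55, 9.40 and 9.72 at D3 and 7.90, 7.96, 8.38 and 8.31 at D9. D1 livers were all above E20 livers, and D1 replicate 3 was the lowest of them. Unlike TK1, TYMS was at D9 below every E16 liver. Its ratio was 2.06 ± 0.23 in D1 vs. E20 (SE, adjusted p = 2.19e-06 by limma).

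The genes that rebuild chromatin on the copied strands were called together after hatch. CHAF1A and CHAF1B, subunits of the factor that places new histones, UHRF1, which guides the copying of DNA methylation, and SLBP, which binds histone mRNA, were all higher in D1 vs. E20, with ratios between 1.09 and 1.74. All 4 were lower in D9 vs. D3, with ratios between -1.32 and -0.95, and CHAF1B and SLBP were also lower in E18 vs. E16. Of the 4 UHRF1 probe sets, 2 were called in D1 vs. E20, with ratios of 0.13 to 1.65 over all 4. The next brightest (mean 6.01, against 6.5 for the one shown) had 1.65 in D1 vs. E20 and -1.48 in D9 vs. D3. It was also called lower in E18 vs. E16 (-0.94, against -0.46 for the one shown). One of the 2 probe sets of CHAF1B and of SLBP carried their calls. The other SLBP probe set had 0.74 in D1 vs. E20, and the other CHAF1B probe set was dim (mean 3.47).

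SLBP measured 6.47, 6.36, 6.13 and 6.83 at E16, 4.91, 4.81, 5.01 and 5.69 at E18 and 5.11, 4.68, 4.79 and 5.19 at E20. It measured 6.48, 6.46, 6.31 and 7.47 at D1, 7.21, 6.84, 6.52 and 7.53 at D3 and 5.39, 5.90, 5.87 and 5.67 at D9. The E16, D1 and D3 livers lay above all E18, E20 and D9 livers, and D1 replicate 4 was well above the other D1 livers. The ratio was -1.34 ± 0.24 in E18 vs. E16, 1.74 ± 0.24 in D1 vs. E20 and -1.32 ± 0.24 in D9 vs. D3 (SE, adjusted p = 0.00419, 3.93e-05 and 0.00179 by limma).

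The D3 vs. E16 contrast was chosen after the data were seen. It set the hatchling age with the highest group mean (0.64) against the embryonic age with the highest (0.14). At D3, 11 genes were higher and 0 lower than at E16, where 6.75% of all named genes were higher and 6.04% lower. The counts at an unadjusted p below 0.05 were 26 and 1, with no such count for all named genes. Limma's adjusted p alone was passed by 19 of the 41 genes and by 3862 of 13009 named genes. The 11 genes were TK1 (2.26 ± 0.18, SE), RRM2 (2.22 ± 0.26), RFC3, UHRF1, ORC5, MCM2, DTL, ORC1, PCNA, RPA2 and ORC6, the last 9 with ratios between 0.755 and 1.05. TYMS and CDC45 had 0.55 ± 0.23 and 0.57 ± 0.27 and did not pass, and the 7 polymerase and primase genes lay between -0.39 and 0.38. The RPA2 call was lost without E16 replicate 3 or D3 replicate 2. E16 livers also held more red blood cell marker signal, with mean deviations of -0.37 to 0.03 at D3 and 0.89 to 1.04 at E16, and 7 of the 9 markers were lower. Macrophage markers were higher for 5 and lower for 1 of 11 (median ratio 0.61), while 5 of 9 granulocyte markers were lower (median -1.018). Those of endothelium and stroma were lower for 5 and higher for 1 of 14 (median -0.556), and 1 of 5 bile duct markers was lower. Their part in this difference was not tested.

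**Figure D4:**
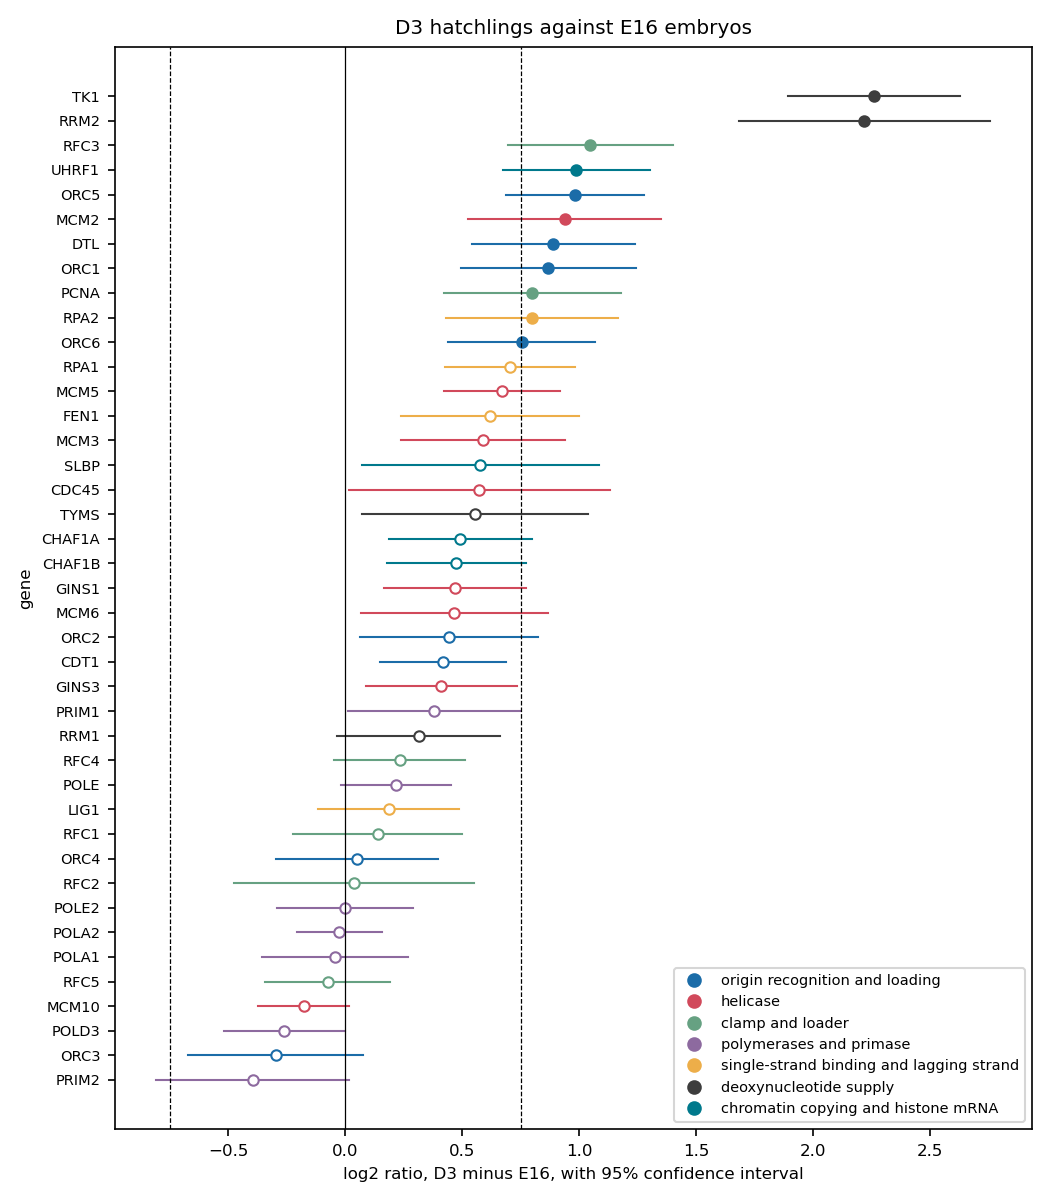
Log2 ratio of 41 replication genes between D3 hatchlings and E16 embryos (D3 minus E16), with the 95% confidence interval from limma. Filled points were called and dashed lines mark the limit of 0.75 in either direction. TK1 and RRM2 stand apart at 2.26 and 2.22, and polymerase and primase genes lie at the lower end.

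Between the ends of the series, D9 vs. E16, 1 gene was higher and 6 were lower (2.44% and 14.6% of the 41), where 6.28% of all named genes were higher and 6.48% lower. TK1 was the gene that was higher, with a ratio of 0.88 ± 0.18 (SE, adjusted p = 0.000825 by limma). That call was lost without D9 replicate 3, when the ratio was 0.72. The lower genes were CDC45 (-1.31 ± 0.27), RFC2, TYMS, ORC4, POLA1 and POLD3, the last 5 between -0.93 and -0.78. Only 1 of 5 POLD3 probe sets was called here, with ratios of -0.78 to 0.0 over all 5. For RFC2 and for POLA1, 1 of 2 probe sets was called. Among the deoxynucleotide genes, RRM2 had 0.74 ± 0.26 (adjusted p = 0.0485) and RRM1 -0.64 ± 0.17 (adjusted p = 0.00793), both inside the limit on the ratio. Of the cell type markers, 7 of 11 for macrophages were higher and 1 lower (median ratio 1.123). For red blood cells 5 of 9 were lower (-0.767), and for granulocytes 4 of 9 (-0.74). For endothelium and stroma 3 of 14 were lower and 1 higher (-0.374), and for bile duct 1 of 5 was lower (-0.57). For lymphocytes 2 of 13 were higher (0.095). The part of these cell types in the replication calls was not tested.

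In the primary contrast of the study, all 12 hatchlings against all 12 embryos, 18 genes were higher and 0 were lower, and 5.42% of all named genes were higher and 4.11% lower. At an unadjusted p below 0.05, 33 of the 41 genes were higher and 3 lower, with no such count for all named genes. Limma's adjusted p alone was passed by 34 of the 41 genes and by 5618 of 13009 named genes. RRM2 (2.52 ± 0.15, SE), TK1 (2.22 ± 0.10) and CDC45 (1.43 ± 0.15) had the highest ratios. POLD3 had the lowest (-0.44 ± 0.07, adjusted p = 3.96e-05), inside the limit on the ratio. The arrays of hatchlings and embryos overlapped for every gene but TK1. Of 13009 named genes, 184 were higher and 235 lower in hatchlings without overlap. Of the marker lists, granulocyte markers were lower for 5 of 9 (median ratio -0.872) and macrophage markers higher for 2 of 11 (0.422). Red blood cell markers gave 0 calls of 9, but all 9 ratios were below 0 (median -0.397) and 7 passed limma's adjusted p. Markers of endothelium and stroma were lower for 3 and higher for 1 of 14 (-0.504), and 1 of 5 bile duct markers was lower (0.027). The part of these cell types was not tested. Averaging over 3 ages on either side of hatch joined the E16 livers, which lay in between, with the low E18 and E20 livers. It also joined the high D1 and D3 livers with the D9 livers.

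Related gene lists were counted in the same contrasts. Of 34 other replication genes, 7 were lower in E18 vs. E16, 13 were higher in D1 vs. E20 and 11 were lower in D9 vs. D3. TOP2A, which untangles copied DNA, had ratios of -1.06, 2.40 and -1.33 in these contrasts, and DCK, a deoxynucleoside kinase, -0.87, 2.03 and -1.22. HELLS, a chromatin remodeller, was called higher in E20 vs. E18 (1.05), where the listed replication genes were not. Of the 34 genes, 5 met the whole sequence of lower, higher and lower calls.

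Of 25 mitosis genes, 19 were lower in E18 vs. E16, 22 were higher in D1 vs. E20, 21 were lower in D9 vs. D3 and 19 met the whole sequence. The kinase gene AURKB had 3.35 in D1 vs. E20 and -2.09 in D9 vs. D3, and MKI67, the gene of the Ki-67 antigen, 3.20 and -1.67. The lists parted between E18 and E20, when 15 of 25 mitosis genes were lower, against 1 of 41 replication genes. The mitosis list had mean deviations of -1.56 to -1.06 on the E20 arrays and -0.49 to -0.35 on the E18 arrays, without overlap, while the replication genes had -0.72 to -0.40 at E20 and -0.75 to -0.39 at E18. The lists also parted in D9 vs. E16, when 16 of 25 mitosis genes were lower and 1 was higher (median ratio -1.006). Of the 41 replication genes, 6 were lower and 1 was higher (-0.362). Among all named genes, 6.48% were lower and 6.28% higher. These differences between the lists were not tested.

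The 29 measured genes that control the passage from G1 to S phase were mixed. In D1 vs. E20, 8 were higher and 1 was lower, with E2F8 (2.61) and CCNA2 (2.07), a cyclin of S phase, the highest. Only 3 met the whole sequence, E2F8, CCNA2 and RBL1. CDKN2B, an inhibitor of the kinases that start the cycle, was near the lower end of the array at every age through D1 (means of 3.84 to 4.05), and rose to 9.06 ± 1.11 at D3 and 12.3 ± 0.11 at D9 (SD, n = 4). Its ratio was 5.22 in D3 vs. D1, when 0 replication genes were called, and 3.24 in D9 vs. D3, when 23 of them were lower. MYC and MYCN had ratios of 2.71 and -1.75 in E20 vs. E18, both called, with no replication gene but CDC45 called in that contrast. Any link between these control genes and the calls of replication genes was not tested.

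**Figure D5:**
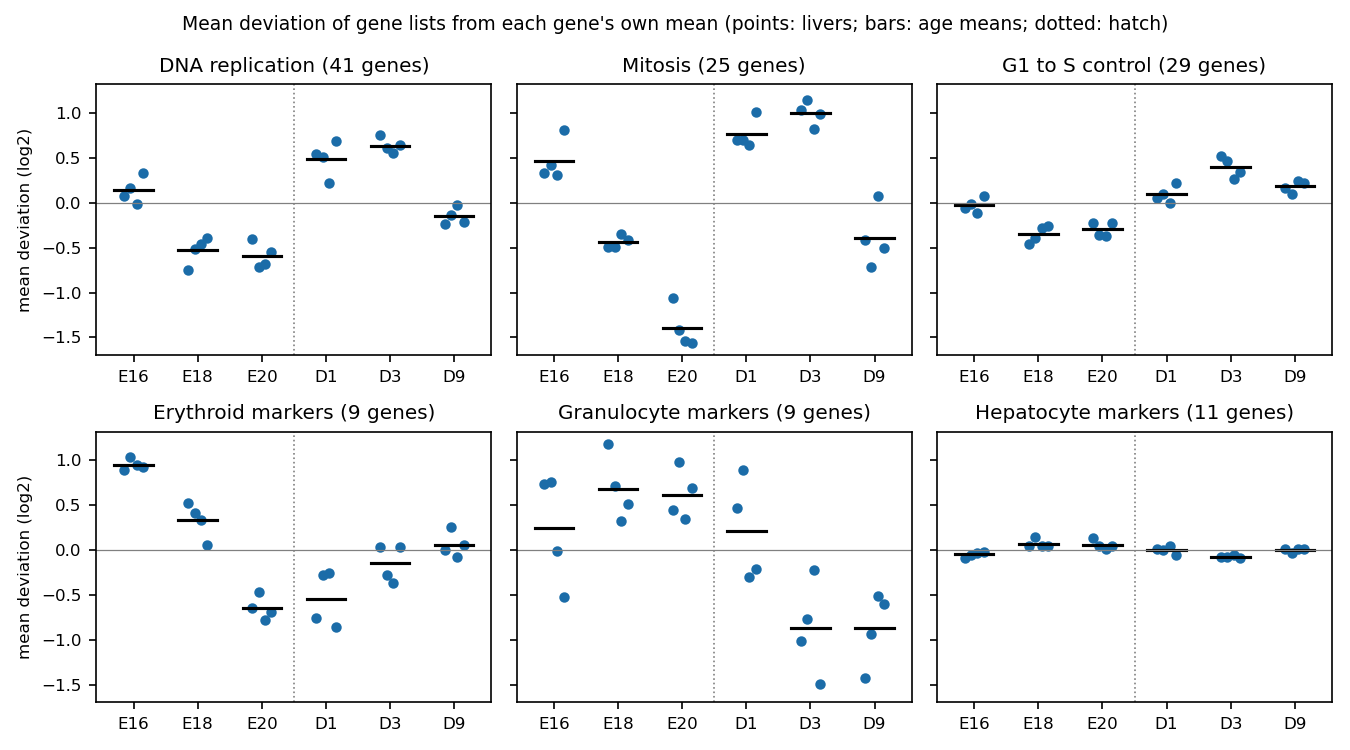
Mean deviation of 6 gene lists from each gene's own mean over 24 arrays (log2 units, points are livers, bars are age means, the dotted line marks hatch). Replication and mitosis genes are low at E18 and E20 and high at D1 and D3, with mitosis genes falling further at E20. Red blood cell markers are highest at E16, granulocyte markers vary widely within ages, and hepatocyte markers stay between -0.09 and 0.14.

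Markers of other cell types were counted in the same way. The 9 measured granulocyte markers ran between -0.52 and 0.76 at E16 and between -0.30 and 0.89 at D1, an age at which the replication genes spanned 0.22 to 0.69, and between -1.49 and -0.22 at D3. Of the red blood cell markers, 0 of 9 were called in D1 vs. E20 and 0 in D9 vs. D3, with median ratios of 0.176 and 0.3. Granulocyte markers gave 0 calls of 9 in both contrasts, with medians of -0.373 and -0.047. Hepatocyte markers gave 0 calls of 11 in each of the contrasts of neighbouring ages. Macrophage markers (11 measured) had 1 lower in D1 vs. E20 and 1 higher in D9 vs. D3, with median ratios of -0.22 and 0.243, and their mean deviation was highest at D9 (0.19 to 0.74) and lowest at E16 (-0.66 to -0.22). Markers of endothelium and stroma (14) had 1 lower in D1 vs. E20 and 0 called in D9 vs. D3, with medians of -0.367 and 0.181. Of 13 lymphocyte markers, 0 were called in D1 vs. E20 and 3 were higher in D9 vs. D3 (medians 0.046 and 0.086), and of 5 bile duct markers 0 were called in either (0.031 and -0.008). In E20 vs. E18, 4 of 9 red blood cell and 2 of 5 bile duct markers were lower, and 1 each for macrophages and stroma was higher. In D3 vs. D1, 3 of 9 red blood cell and 1 of 11 macrophage markers were higher, and 3 of 9 granulocyte markers lower (median -0.862). In E18 vs. E16, 1 of 5 bile duct markers was lower, and all 9 granulocyte and 10 of 11 macrophage ratios were above 0, uncalled. The part of these cell types was not tested.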

How the data were processed

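Total RNA from 24 chicken livers was hybridized to Affymetrix Chicken Genome Arrays. The deposited values are log2 intensities, which the authors computed by the robust multi-array average (RMA) after removing background and equalizing quantiles across arrays. Per the methods they used affylmGUI, and the submitters' processing notes name limma 3.30.13. Array medians lay between 5.43 and 5.55. After 96 controls were left out, 38439 probe sets were fitted in limma 3.58.1 (R 4.3.3), each age having its own mean, without a block (18 residual and 3.81 prior degrees of freedom). P-values are two-sided, adjusted after Benjamini and Hochberg over all probe sets, and the limits on the adjusted p (0.05) and the ratio (0.75) are those of the methods. Shares over all named genes use 13009 genes, 1 probe set each.

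The members and lists were chosen with earlier results of these data known. Values on every array are given for the member with the widest range of age means in each role, the 3 called members with the highest and lowest ratio in each contrast of neighbouring ages and any member called against the majority. MCM10 was added after its values were seen. Gene names come from the platform annotation, and all 41 matched the gene table. The groups follow the sample titles, since a stage label reads E16 for E18 and E20 livers too.

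The methods state that each of 4 hybridization days held 1 liver of each age. The replicate number was taken as the day, which the sample titles do not state. Deviations from age means correlated by 0.071 between arrays of the same replicate number (60 pairs) and by -0.0234 between arrays of different numbers (180 pairs). The fit was run on simulated data with known changes in D1 vs. E20, in which each probe set varied independently. Of 100 probe sets changed by 1, 88 were called, and of 100 changed by 2, 98 were. Of 38239 unchanged probe sets, 2 were called. These numbers do not give the error rate where genes vary together. Alternatives were a replicate block, cyclic loess, array weights, trend and robust moderation, a filter on dim probe sets (28829 kept), only the arrays compared, the probe set of largest variance, all probe sets of a gene averaged, no limit on the ratio, and arrays left out. The number of arrays limits the precision. Raw scanner files were not used here.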

Additional observations from a re-analysis of the deposited data

Results flagged for a closer look

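Chance sets apart about 1 liver in 20 sets of 4, and genes on the same array are not independent. Among 246 such sets (41 genes at 6 ages), 15 held 1 liver whose distance to the next took up most of the range. That number is near the share by chance, and none of the 15 was tested further. Of these, 3 fell on D1 replicate 3, which read low for DTL (6.18, next value 6.87), MCM2 (8.38, next 8.99) and MCM3 (7.68, next 8.30), while SLBP was high on D1 replicate 4 (7.47, next 6.48). The mean deviation of all 41 genes was 0.22 on D1 replicate 3 and 0.51 to 0.69 on the other D1 arrays, and without D1 replicate 3, 26 genes were called in D1 vs. E20 in place of 25. On E18 replicate 1, ORC6 (7.06, next 7.57) and CDT1 (6.53, next 7.08) were low. On E20 replicate 3, ORC3 (7.18, next 7.55) and DTL (4.98, next 5.35) were low, and on E20 replicate 1 CDC45 was high (5.63, next 4.48).

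At E16, replicate 4 was high for GINS3 (8.73, next 8.35) and FEN1 (5.85, next 5.37), and replicate 2 for CDT1 (7.80, next 7.68). D3 replicate 1 was low for PRIM1 (6.83, next 7.08) and high for TK1 (10.76, next 10.47). D9 replicate 1 was high for RFC1 (7.67, next 7.34).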

How the results depend on the processing

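Of 578 alternative counts for 17 counts of called replication genes, 25 differed from the reported count by more than 1.5 times. The replicate block (replicate number taken as the hybridization day) left the number of calls as it was in all of them. Among these were 17 lower in E18 vs. E16, 25 higher in D1 vs. E20 and 23 lower in D9 vs. D3. It changed no call of a gene described liver by liver. Fitted on only the arrays compared, 10 genes were lower in E18 vs. E16, 0 were lower in E20 vs. E18 and 1 was higher in D3 vs. D1. With these fits, which estimated the spread from the compared arrays alone, 9 met the sequence of 3 calls. With all probe sets of a gene averaged, 11 were lower in E18 vs. E16 and 1 was higher in D3 vs. D1. With the probe set of largest variance, 1 was higher in E20 vs. E18 and 1 lower in hatchlings vs. embryos. Array weights gave 1 higher in D3 vs. D1 and 2 higher in D9 vs. E16, cyclic loess 2 higher in D9 vs. E16, and the filter on dim probe sets 1 higher in D3 vs. D1. Without a limit on the ratio, 1 was higher in E20 vs. E18 and 1 in D3 vs. D1, against 943 and 817 of 13009 named genes. In D9 vs. E16, 3 were higher and 17 lower (1812 and 1861 named genes). For D3 vs. E16, 19 were higher (2152 named genes). For hatchlings vs. embryos, 32 were higher and 2 lower (3118 and 2500 named genes). With each array left out in turn, 12 to 18 were lower in E18 vs. E16, 24 to 26 higher in D1 vs. E20, 20 to 24 lower in D9 vs. D3, 0 to 1 higher in D3 vs. D1, 0 to 2 higher (0 without D9 replicate 3, 2 without D9 replicate 4) and 4 to 8 lower in D9 vs. E16, 8 to 13 higher in D3 vs. E16, 16 to 19 higher in hatchlings vs. embryos, and 11 to 17 met the sequence. For the 43 called ratios of genes described liver by liver, 27 of 1462 alternatives lost the call and 0 reversed the direction. The causes of the differences between settings were not tested. Low signal limits PRIM2, the E20 values of CDC45 and the E18 and E20 values of FEN1, which lie near the dim end of the array.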
